A study of Mus musculus with 6 samples.

Results

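The 34 genes described here encode enzymes, membrane proteins and proton pump subunits of the lysosome, together with the transcription factors of the TFEB family. They were taken by their gene symbols from a table of 32544 genes measured in kidney proximal tubules of C57Bl/6 mice, and all 34 passed the filter on low values that left 14311 genes for testing. The tested libraries, called AA, came from mice given aristolochic acid I, a plant nephrotoxin that forms adducts on DNA, at 3 mg/kg. Those called DMSO came from mice given the solvent dimethyl sulfoxide, for which the design text states the same dose. Both groups had 3 libraries and were collected 24 h after a single injection. The design text calls all mice control mice and gives no allele for them. Proximal tubule pieces from the S2 and S3 segments, which follow the convoluted first segment, were picked out by hand and several were pooled from each kidney. Whether a group's libraries are from separate animals is not stated in the labels, and the p-values therefore reflect the spread between libraries only. Values are in CPM, which are read counts scaled to the total of their library, and fold changes are differences of log2(CPM + 1), AA minus DMSO.

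Lysosomes are the acid compartment in which cells break down protein, lipid and sugar chains. Proximal tubule cells take up filtered protein from the urine and pass it to lysosomes, where cathepsins and glycosidases digest it. A proton pump, the V-ATPase, keeps the inside acid, and heavily glycosylated membrane proteins line the wall. TFEB, TFE3 and MITF are related transcription factors that bind a palindromic E-box near the start of many lysosomal genes, known as the CLEAR element, with CACGTG as its core and TCACGTGA as a long form. When the kinase mTORC1 is active these factors are held in the cytoplasm, and when lysosomes are starved or stressed they enter the nucleus.

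Promoter windows were read to show that E-box in the genes themselves. RefSeq promoter windows of build GRCm38.p6, 250 bases before to 50 bases after a start site, were matched to 29 members by symbol and gave 36 windows. Npc1, Asah1, Ctsh, Ctsb and Atp6v1h had no window. CACGTG, which reads the same on both strands, was found in 11 of the 36 windows (30.6%) and in 7.15% of all 32851 windows of the table. The longer TCACGTGA, which is also a palindrome and contains CACGTG, was found in 6 of the 36 windows (16.7%) and in 0.974% of all windows. The members with the longer form were Atp6v0d1, Atp6v1a, Ctsa, Ctsd, Gla and Mcoln1, and Ctsf, Ctsl, Glb1, Lamp1 and Naglu held the shorter form only. The following windows carry the longer form and belong to a protease and a glycosidase that rose in AA libraries, and to a channel and a pump subunit that passed no test. They lie at chr7:142387778-142388077 on the minus strand for Ctsd, chrX:134600956-134601255 on the minus strand for Gla, chr8:3500269-3500568 on the plus strand for Mcoln1 and chr16:44139210-44139509 on the minus strand for Atp6v1a. Capitals mark TCACGTGA.
Ctsd: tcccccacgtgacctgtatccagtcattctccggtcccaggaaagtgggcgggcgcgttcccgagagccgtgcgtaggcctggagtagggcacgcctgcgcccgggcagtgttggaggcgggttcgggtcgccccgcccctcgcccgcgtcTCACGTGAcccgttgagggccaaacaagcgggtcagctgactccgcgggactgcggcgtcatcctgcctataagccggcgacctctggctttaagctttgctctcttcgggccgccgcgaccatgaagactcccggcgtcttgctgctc
Gla: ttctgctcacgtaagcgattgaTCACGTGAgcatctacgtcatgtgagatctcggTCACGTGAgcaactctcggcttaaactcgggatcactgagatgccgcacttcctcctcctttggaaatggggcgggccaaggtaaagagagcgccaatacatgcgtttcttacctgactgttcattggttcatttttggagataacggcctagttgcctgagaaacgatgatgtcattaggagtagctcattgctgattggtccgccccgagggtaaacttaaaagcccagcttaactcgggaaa
Mcoln1: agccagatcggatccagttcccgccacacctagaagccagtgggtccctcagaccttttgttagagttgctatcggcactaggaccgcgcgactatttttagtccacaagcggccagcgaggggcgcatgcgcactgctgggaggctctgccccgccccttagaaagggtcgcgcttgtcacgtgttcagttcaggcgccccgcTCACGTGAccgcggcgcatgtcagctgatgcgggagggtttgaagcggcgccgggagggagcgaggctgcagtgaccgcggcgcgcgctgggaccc
Atp6v1a: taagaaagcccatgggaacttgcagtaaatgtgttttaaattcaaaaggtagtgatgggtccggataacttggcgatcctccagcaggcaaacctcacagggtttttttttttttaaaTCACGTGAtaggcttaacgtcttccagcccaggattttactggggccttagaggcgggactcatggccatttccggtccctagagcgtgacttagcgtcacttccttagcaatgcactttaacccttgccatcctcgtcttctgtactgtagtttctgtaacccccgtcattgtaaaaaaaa
Counted from the start site as 0, the first base of the motif lies at position -99 in Ctsd, at -228 and -195 in Gla, at -46 in Mcoln1 and at -132 in Atp6v1a. All of these start sites lie inside the outermost ends that GENCODE M21 gives for the gene. A match is a string of letters in the window and was not measured as a binding site.

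Library depth was 13304877, 17815915 and 13926322 reads in AA replicates 1, 2 and 3, and 23896026, 31136251 and 15958557 reads in DMSO replicates 1, 2 and 3. A single read therefore stood for 0.0321 to 0.0752 CPM. Correlations of log2 values were 0.970 to 0.980 within groups and 0.918 to 0.950 between them. Earlier results of these data had set DMSO replicates 1 and 2 apart from the other 4 libraries. Every pair within a group correlated more highly than every pair between groups. These ranges do not show whether DMSO replicate 3 lay nearer to the AA libraries than DMSO replicates 1 and 2 did. The AA effect was also fitted with a term for DMSO replicates 1 and 2, which leaves it resting on DMSO replicate 3 alone. The median fold change of all tested genes was 0.21 on the log2 scale, AA over DMSO, and -0.05 after the library medians were equalised. Proximal tubule markers carried the label's tissue, with 15 listed genes summing to 35772 to 49018 CPM in AA libraries and 43569 to 59409 CPM in DMSO libraries. Kap, the highest of them, averaged 25582 CPM in AA libraries and 23635 CPM in DMSO libraries (limma adjusted p = 0.861). It weighs heavily in these sums, which therefore hide changes of the other markers. Of the 15, 12 had negative and 3 had positive fold changes. Markers of the thick limb and distal tubule summed to 391.96, 1449 and 806 CPM in AA libraries and 546, 601 and 311 CPM in DMSO libraries, with AA replicate 2 and the gene Umod the highest. Of the 8 tested, 7 had positive and 1 had a negative fold change. Of these, 2 rose (25%, beside 22.3% of all tested genes) and 1 fell (12.5%, beside 8.66%). The 8 principal cell markers, led by Aqp4, summed to 70.7 to 115 CPM in AA libraries and 86.2 to 187 CPM in DMSO libraries. Aqp4 made up most of each DMSO sum and fell, averaging 11.7 CPM in AA libraries and 93.7 CPM in DMSO libraries. The sum therefore follows Aqp4 and not the list, of which 6 had positive and 2 had negative fold changes. Of the 8, 3 rose (37.5%, beside 22.3% of all tested genes), among them Aqp2 with 43.4 CPM in AA libraries and 8.29 CPM in DMSO libraries. The 9 endothelial markers, led by Plvap, summed to 352 to 404 CPM in AA libraries and 225 to 356 CPM in DMSO libraries. Of the 9, 8 had positive and 1 had a negative fold change. Of these, 2 rose (22.2%, beside 22.3% of all tested genes) and none fell. Of the 15 proximal tubule markers 1 rose (6.67%, beside 22.3% of all tested genes) and 6 fell (40%, beside 8.66%). Their median fold change was -0.59 on the log2 scale, and -0.13 against DMSO replicate 3 alone. Since these are bulk samples, fewer cells of a type and less RNA per cell cannot be told apart.

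Of the 34 lysosomal genes, 8 rose, 1 fell and 25 did not pass the test (limma, Benjamini-Hochberg adjusted p under 0.05 over all tested genes). The 8 genes that rose were 23.5% of the members, beside 22.3% of all tested genes, and the 1 that fell was 2.94%, beside 8.66% of all tested genes. Neither share of members stood far above its background. The genes that rose were Cd68, Laptm4a, Tfe3, Ctsd, Ctss, Gla, Npc2 and Ctsl, and the gene that fell was Atp6v0a4. Values of AA and DMSO libraries did not overlap for 16 members, 47.1% of the list, beside 46.4% of all tested genes. The median fold change of the members was 0.11 on the log2 scale, below the 0.21 of all tested genes, and 16 of 34 members lay above that all-gene median. Together the members made up 9943, 9769 and 10535 CPM in AA libraries and 8895, 9029 and 7956 CPM in DMSO libraries. All AA sums lay above all DMSO sums, with means of 10082 and 8627 CPM. The median fold change of all tested genes was also positive, so this gap was not set apart from that general shift. Psap alone supplied 36.8% of the AA mean and 33.7% of the DMSO mean. It averaged 3710 CPM in AA libraries and 2911 CPM in DMSO libraries and did not pass the test.

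**Figure D1:**
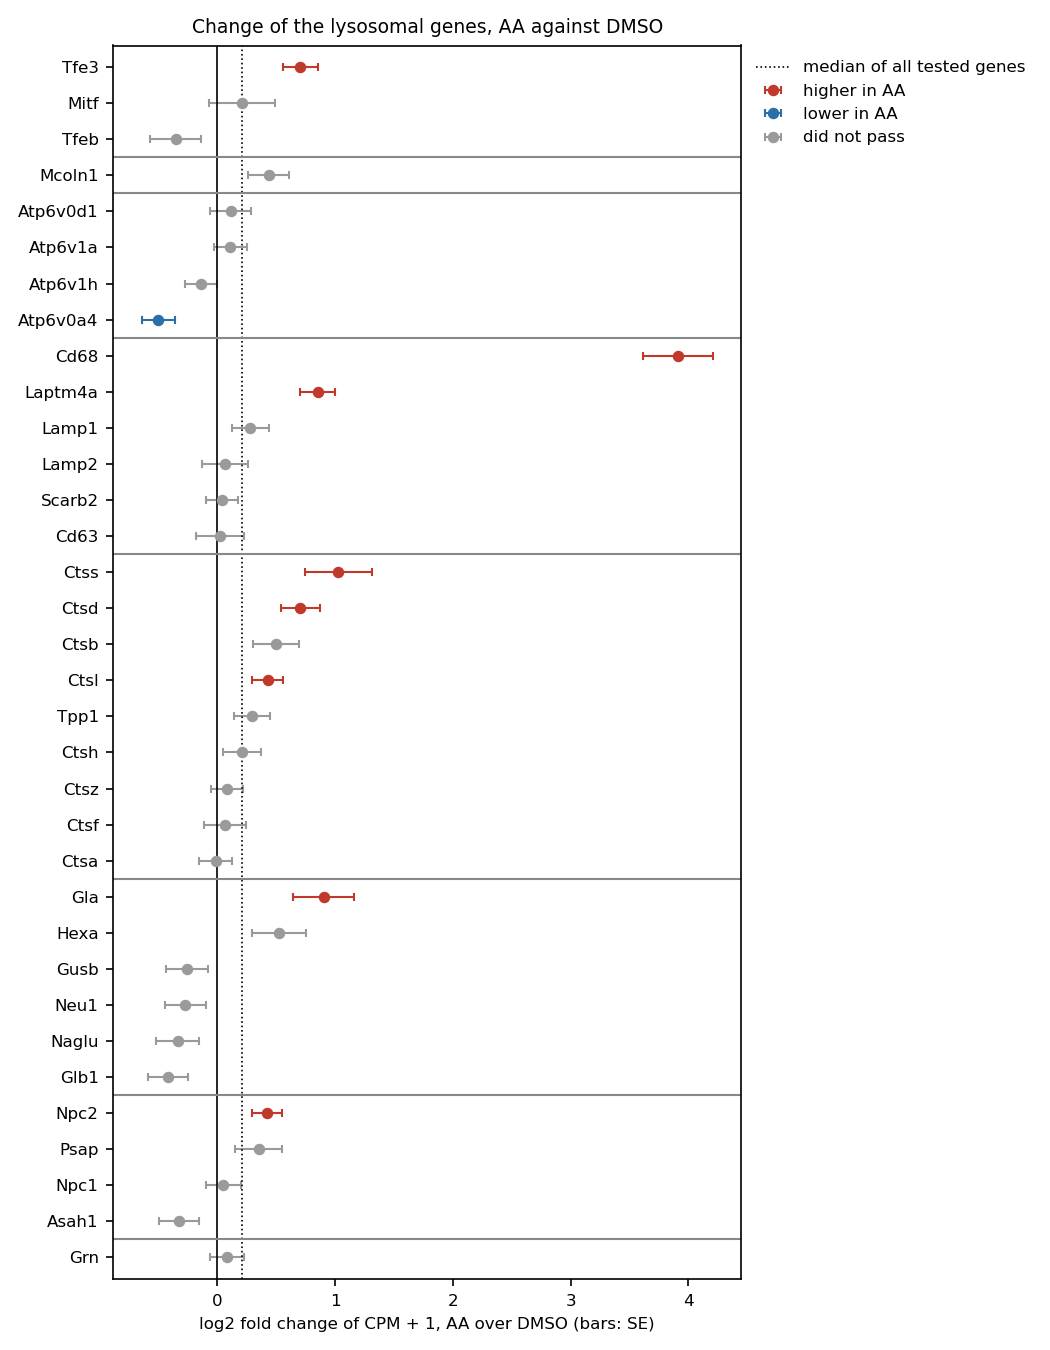
Log2 fold change (AA over DMSO) of the 34 lysosomal genes with its standard error, grouped by role, n = 3 libraries in each group; the dotted line is the median of all tested genes (0.21). Cd68 stands alone at 3.91, and the other called genes lie between -0.50 and 1.03.

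All 9 called genes kept their direction under each of 19 alternative fits, but only Cd68 and Laptm4a were called under all of them. Cd68, Laptm4a, Ctsd and Tfe3 were called whichever library was left out. Of the 9, 4 were called with the library-set term, namely Cd68, Laptm4a, Ctsd and Ctss. TMM, another of the alternatives, scales each library by a trimmed mean of its ratios to a chosen library.

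**Figure D2:**
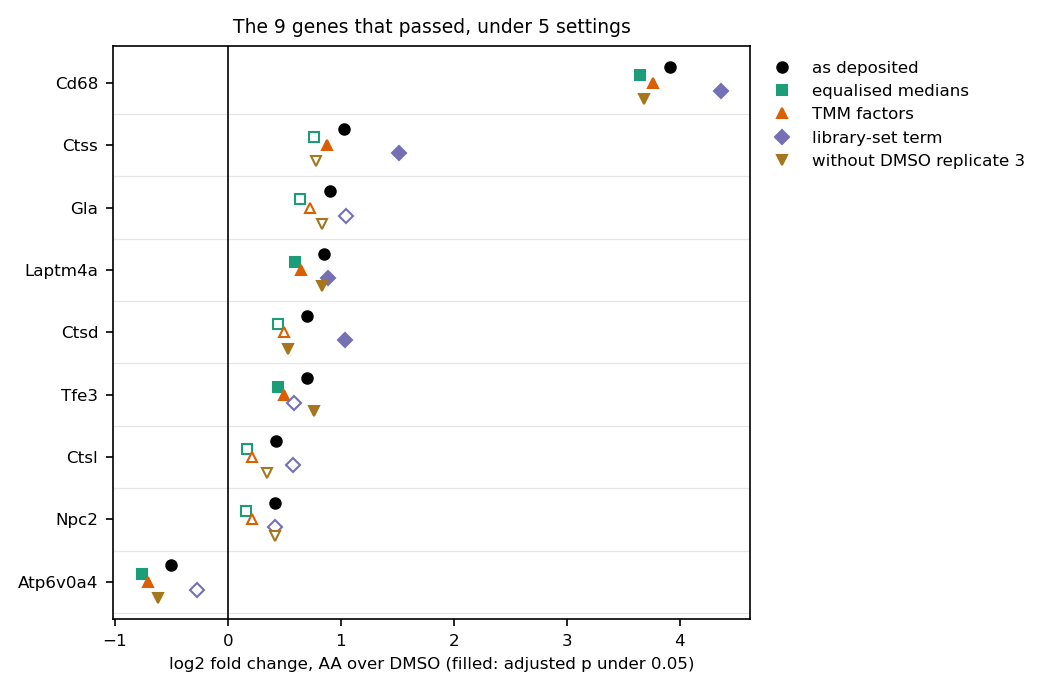
Log2 fold change (AA over DMSO) of the 9 called lysosomal genes as reported and with equalised medians, TMM factors, the library-set term and DMSO replicate 3 left out; filled symbols have a limma adjusted p under 0.05 and open symbols do not. Cd68 and Laptm4a are filled throughout, and Atp6v0a4 is the gene that lies below 0 under each setting.

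Tfe3 was the member of the TFEB family that rose. It lies on chromosome X at 7762560 to 7775202 on the plus strand (mm10). Tfe3 had 48.0, 48.3 and 47.2 CPM in AA libraries, against 25.8, 29.9 and 31.5 CPM in DMSO libraries. Every AA library lay well above every DMSO library, and the AA values differed by little among themselves. The means were 47.8 ± 0.575 CPM in AA libraries and 29.0 ± 2.91 CPM in DMSO libraries (SD, n = 3 each), a fold change of 0.70 ± 0.15 on the log2 scale (SE, limma adjusted p = 0.00494). Leaving out any library gave adjusted p-values of 0.00746 to 0.0232, and the library-set term gave 0.59 on the log2 scale with an adjusted p of 0.108.

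Tfeb, the factor that gives the family its name, had 16.0, 15.0 and 15.7 CPM in AA libraries, against 16.0, 27.7 and 18.4 CPM in DMSO libraries. The groups did not overlap, but AA replicate 1 and DMSO replicate 1 were nearly equal, and DMSO replicate 2 stood highest. The fold change of Tfeb was -0.35 ± 0.21 on the log2 scale (SE, limma adjusted p = 0.23). With equalised library medians Tfeb was called lower at -0.61 on the log2 scale (limma adjusted p = 0.0385), and with quantile normalization also at -0.61 (adjusted p = 0.0415). Without DMSO replicate 2 the value was -0.13 (adjusted p = 0.636), and the library-set term gave -0.23 (adjusted p = 0.686). Mitf, best known from pigment cells and osteoclasts, had 6.24, 11.4 and 5.46 CPM in AA libraries, against 7.41, 5.56 and 5.83 CPM in DMSO libraries. Its groups overlapped, with AA replicate 2 alone high (adjusted p = 0.599).

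Per kilobase of the longest annotated transcript, mean Tfe3 levels were 14.1 CPM in AA libraries and 8.57 CPM in DMSO libraries. Tfeb levels on that scale were 6.65 CPM in AA libraries and 8.84 CPM in DMSO libraries. Mitf levels were 1.58 CPM in AA libraries and 1.28 CPM in DMSO libraries. Tfe3 was thus the highest of the family per kilobase in AA libraries, while Tfe3 and Tfeb lay close together in DMSO libraries.

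**Figure D3:**
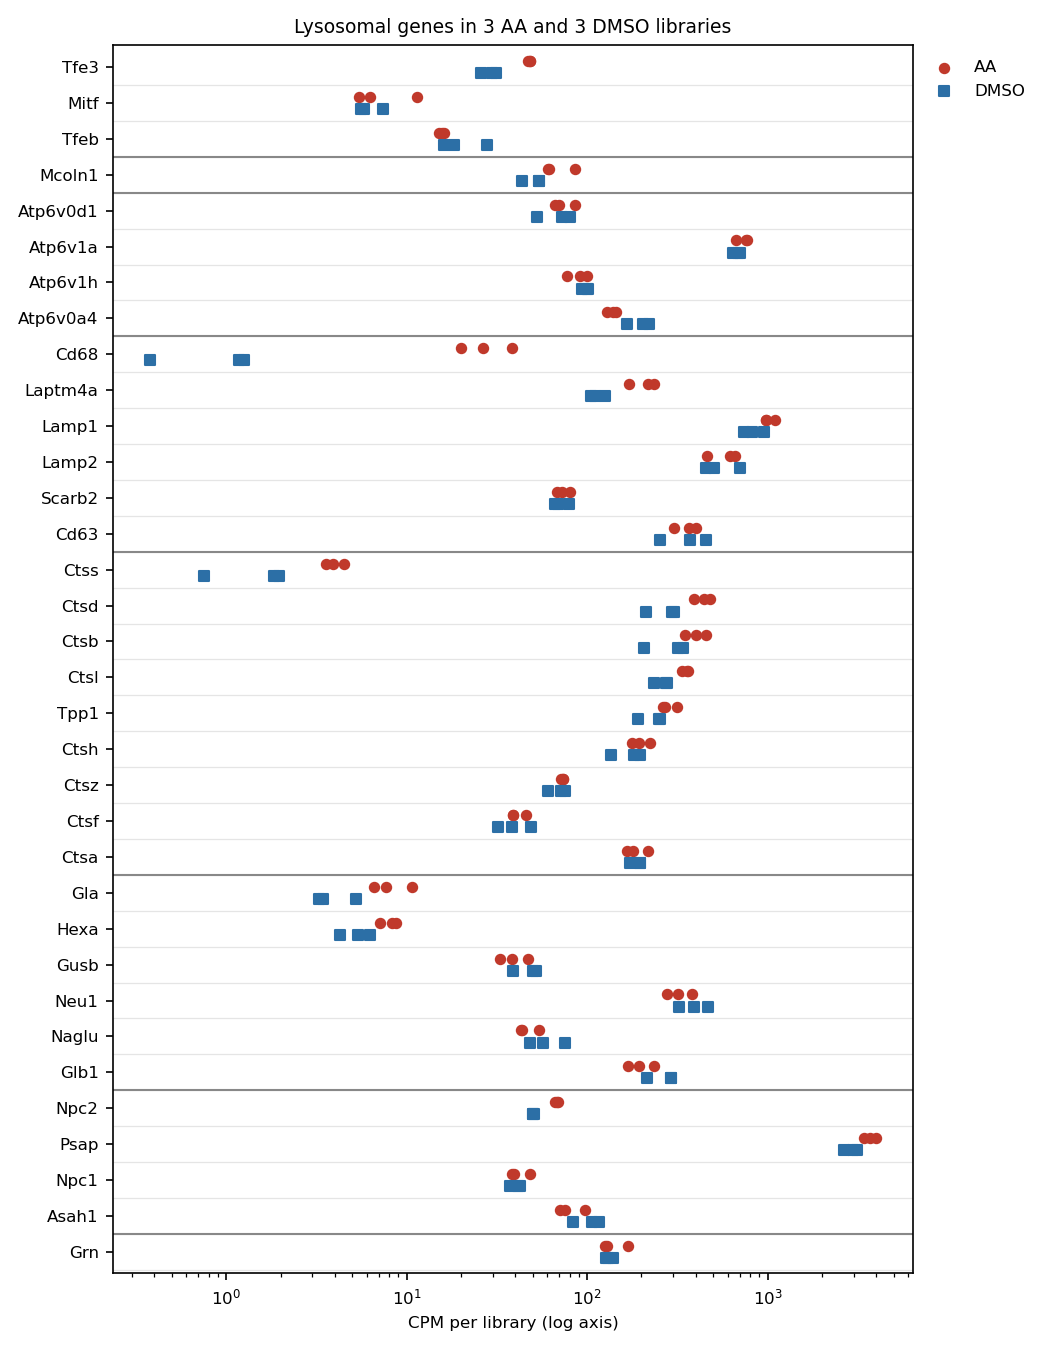
Level (CPM, log axis) of each of the 34 lysosomal genes in the 3 AA and 3 DMSO libraries, grouped by role; each point is a library. The members span from below 1 CPM for Cd68 in a DMSO library to 4004 CPM for Psap in an AA library, and Cd68 shows the widest gap between the groups.

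Mcoln1 encodes TRPML1, the channel that lets calcium out of the lysosome. Mcoln1 had 61.1, 60.5 and 86.1 CPM in AA libraries, against 43.3, 54.3 and 53.8 CPM in DMSO libraries. The groups did not overlap, with AA replicate 3 the highest, and the gene did not pass the test at 0.44 ± 0.17 on the log2 scale (SE, limma adjusted p = 0.0757). No alternative fit called it.

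Of the 4 proton pump members none rose and 1 fell (25%, beside 8.66% of all tested genes). Atp6v0a4, the a4 form of the membrane subunit that carries protons across, is known from acid-secreting intercalated cells and from the brush border of the proximal tubule. Atp6v0a4 lies on chromosome 6 at 38048483 to 38124586 on the minus strand (mm10). It had 139, 145 and 128 CPM in AA libraries, against 203, 219 and 166 CPM in DMSO libraries. All AA libraries lay below all DMSO libraries, with DMSO replicate 3 the nearest to them. The means were 138 ± 8.55 CPM in AA libraries and 196 ± 27.5 CPM in DMSO libraries (SD, n = 3 each), a fold change of -0.50 ± 0.14 on the log2 scale (SE, limma adjusted p = 0.0213). It was no longer called without AA replicate 3 (adjusted p = 0.0802), DMSO replicate 1 (0.0605) or DMSO replicate 2 (0.0564), and when the library-set term was added (-0.27 on the log2 scale, adjusted p = 0.39). Exons of Atp6v0a4 overlap those of D630045J12Rik on the same strand, which averaged 113 CPM in AA libraries and 165 CPM in DMSO libraries, so reads of the pair may be uncertain.

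The other pump members did not pass the test. Atp6v1a, the catalytic subunit that splits ATP, had 668, 771 and 758 CPM in AA libraries, against 683, 705 and 645 CPM in DMSO libraries (limma adjusted p = 0.583). Atp6v0d1, a subunit of the membrane sector, averaged 73.6 ± 10.2 CPM in AA libraries and 68.6 ± 13.9 CPM in DMSO libraries (SD, n = 3 each). Atp6v1h, a regulatory subunit of the outer sector, averaged 89.5 ± 10.9 CPM in AA libraries and 98.5 ± 3.89 CPM in DMSO libraries (SD, n = 3 each). Values of the groups overlapped for all of these subunits.

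Of 20 tested pump subunits outside the member list, 8 rose (40.0%, beside 22.3% of all tested genes) and none fell. Their median fold change was 0.50 on the log2 scale. This list was chosen with earlier results of these data known, so the share is no test. Atp6ap1, an accessory subunit, averaged 248 CPM in AA libraries and 126 CPM in DMSO libraries (0.97 on the log2 scale, limma adjusted p = 0.00125). Atp6v1f averaged 72.7 ± 4.85 CPM in AA libraries and 47.2 ± 3.34 CPM in DMSO libraries (0.61, adjusted p = 0.00677). Atp6v0e2 averaged 39.3 ± 5.09 CPM in AA libraries and 24.3 ± 2.37 CPM in DMSO libraries (0.67, adjusted p = 0.0111). Only 1 of the 20 was called higher with equalised medians, beside 11.2% of all tested genes, and 1 with the library-set term, beside 7.39%. Atp6v1b1, a pump subunit of intercalated cells, is among the 8 and is also 1 of the 11 intercalated cell markers listed. Of the 9 other tested markers of that cell type, Foxi1, Aqp6 and Kit rose. With Atp6v1b1 these make 40% of the tested markers, beside 22.3% of all tested genes. Only Aqp6, 1 of the 10 tested, was called higher with equalised medians, beside 11.2% of all tested genes. Among the markers not called, Atp6v0d2 and Atp6v1g3 are in the pump list as well. The 11 markers, of which Atp6v1b1 was the highest, summed to 27.7 to 64.0 CPM in AA libraries and 19.6 to 29.0 CPM in DMSO libraries. None of those markers was at 0 in all libraries, and their part in the pump values was not tested.

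**Figure D4:**
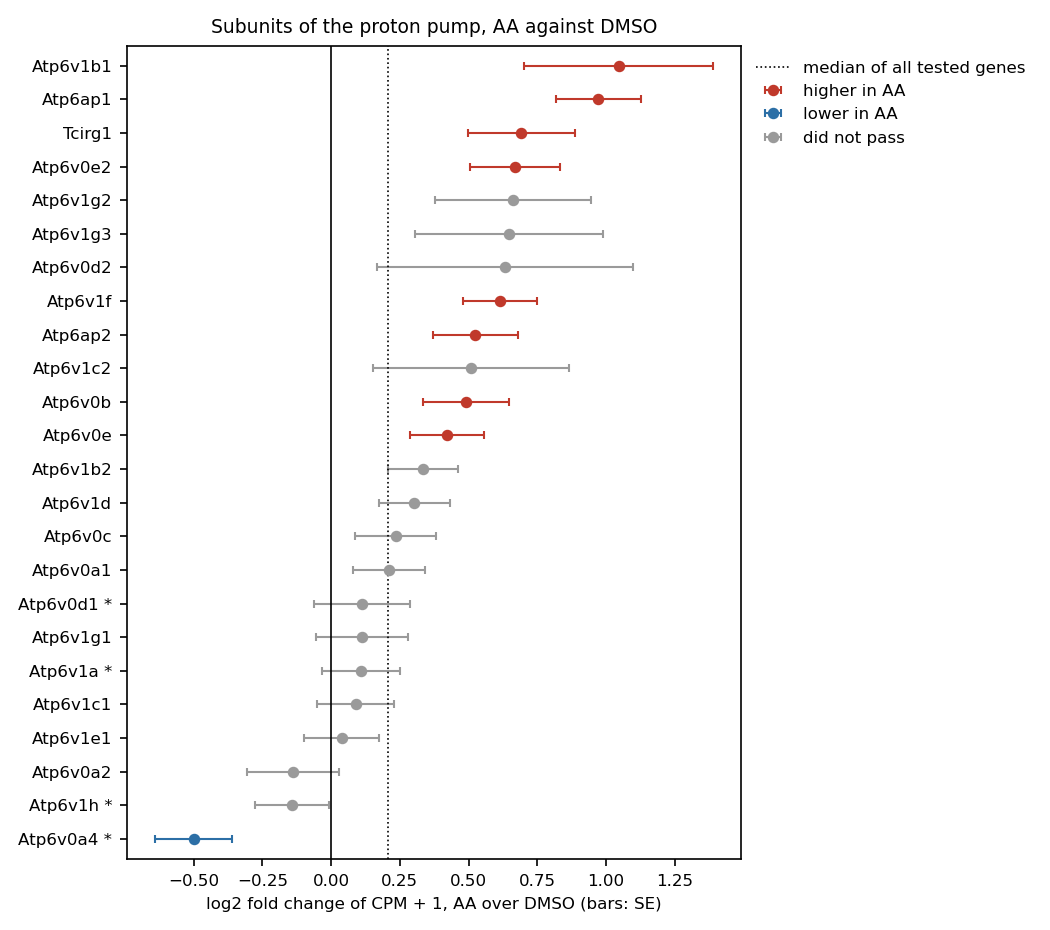
Log2 fold change (AA over DMSO) with its standard error for all tested subunits of the V-ATPase, with an asterisk on the 4 lysosomal members, n = 3 libraries in each group; the dotted line is the median of all tested genes (0.21). The members lie between -0.50 and 0.11, and the accessory subunit Atp6ap1 and the intercalated cell subunit Atp6v1b1 lie highest at 0.97 and 1.05.

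Among the 6 membrane proteins Cd68 and Laptm4a rose (33.3%, beside 22.3% of all tested genes) and none fell. Cd68, a heavily glycosylated protein used as a marker of macrophages, had the largest change of all 34 members and ranked 17 of 14311 tested genes by fold change. It lies on chromosome 11 at 69664213 to 69666153 on the minus strand (mm10), with no exon shared with another gene. Cd68 had 20.1, 26.6 and 38.4 CPM in AA libraries, against 1.17, 1.25 and 0.376 CPM in DMSO libraries. Every AA library lay more than an order of magnitude above every DMSO library, and the lowest AA library held 267 Cd68 reads while the DMSO libraries held 6 to 39. The means were 28.4 ± 9.30 CPM in AA libraries and 0.933 ± 0.484 CPM in DMSO libraries (SD, n = 3 each), a ratio of 30.4. On the log2(CPM + 1) scale, which understates changes of low genes, the fold change was 3.91 ± 0.30 (SE, limma adjusted p = 1.26e-05). Cd68 stayed called with every library left out, at adjusted p-values of 4.86e-06 to 0.000196, and under the library-set term (4.37 on the log2 scale, adjusted p = 4.88e-05).

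Other macrophage and leukocyte genes moved less than Cd68 did. Of 16 markers listed, 14 were tested. Lyz2, C1qb and Cd14 rose (21.4%, beside 22.3% of all tested genes), while none fell. Of the 14, 13 had positive and 1 had a negative fold change, and 12 lay above the all-gene median of 0.21. The median of the 14 was 0.48 on the log2 scale. Cd14, a receptor for bacterial lipopolysaccharide, averaged 9.25 ± 1.23 CPM in AA libraries and 1.23 ± 0.629 CPM in DMSO libraries (2.23 on the log2 scale, limma adjusted p = 0.000273). Lyz2, the macrophage lysozyme, averaged 5.78 ± 3.20 CPM in AA libraries and 1.77 ± 0.596 CPM in DMSO libraries (1.21, adjusted p = 0.0233). Adgre1, which encodes the macrophage antigen F4/80, had 1.503, 1.96 and 2.94 CPM in AA libraries, against 1.46, 0.771 and 1.63 CPM in DMSO libraries, and overlapped (adjusted p = 0.26). The 16 markers summed to 177 to 246 CPM in AA libraries and 203 to 291 CPM in DMSO libraries. Csf1r, the receptor for a macrophage growth factor, made up most of that sum and averaged 144 ± 30.8 CPM in AA libraries and 205 ± 47.0 CPM in DMSO libraries (adjusted p = 0.0773). The 15 markers without Csf1r summed to 65.6 to 74.7 CPM in AA libraries and 33.0 to 43.8 CPM in DMSO libraries, a ratio of means of 1.81 beside 30.4 for Cd68. No marker was at 0 in any library, the lowest being 0.0964 CPM, and the part of these cells in the Cd68 change was not tested.

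**Figure D5:**
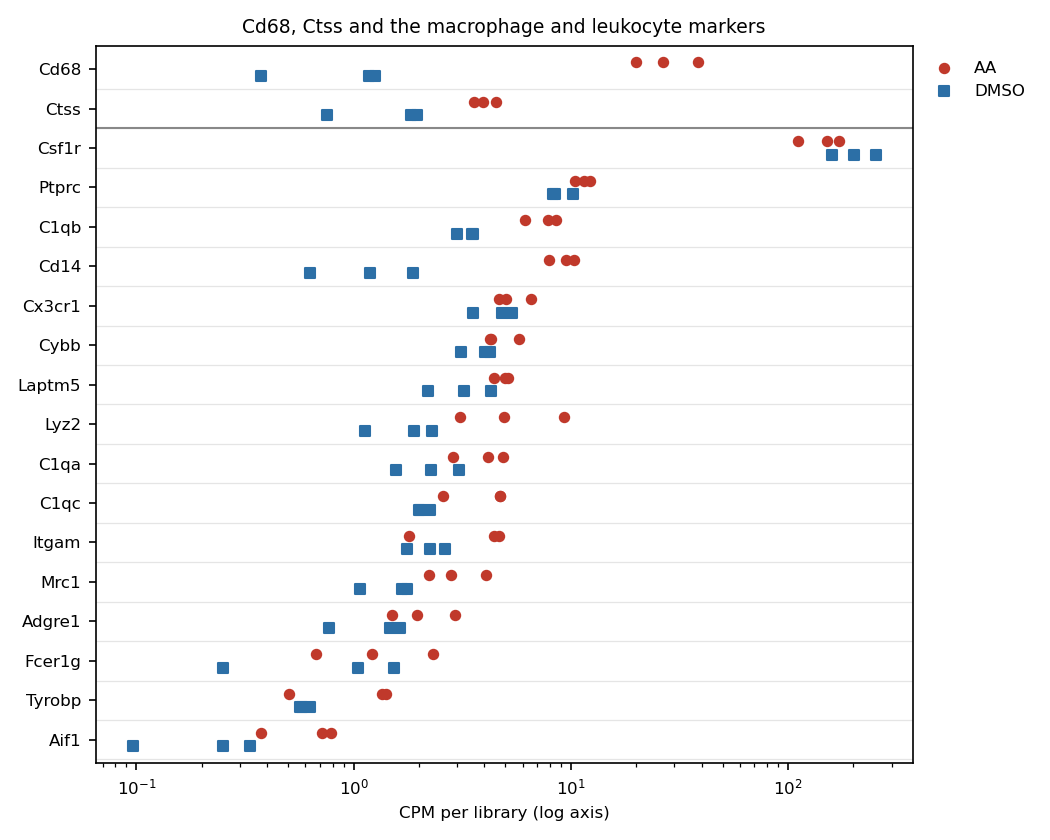
Level (CPM, log axis) of Cd68, Ctss and markers of macrophages and leukocytes in the 3 AA and 3 DMSO libraries; each point is a library. Cd68 lies at 20.1 to 38.4 CPM in AA libraries and at 0.376 to 1.25 CPM in DMSO libraries, while Adgre1 overlaps between the groups.

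Laptm4a, a protein that spans the lysosomal membrane several times, lies on chromosome 12 at 8921664 to 8938742 on the plus strand (mm10). Laptm4a had 170, 234 and 218 CPM in AA libraries, against 125, 105 and 111 CPM in DMSO libraries. The groups were well apart, with AA replicate 1 the nearest to the DMSO libraries. The means were 208 CPM in AA libraries and 114 CPM in DMSO libraries, a fold change of 0.85 ± 0.15 on the log2 scale (SE, limma adjusted p = 0.00215). It kept its call under the library-set term (adjusted p = 0.0264) and with equalised medians (0.59 on the log2 scale, adjusted p = 0.0163).

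Lamp1 and Lamp2, the main glycoproteins of the lysosomal wall, did not pass the test. Lamp1 had 975, 983 and 1093 CPM in AA libraries, against 954, 822 and 745 CPM in DMSO libraries. Its groups did not overlap, though DMSO replicate 1 lay close to the AA values (0.28 ± 0.16 on the log2 scale, SE, limma adjusted p = 0.193). Lamp2, whose A form takes in proteins during chaperone-mediated autophagy, had 461, 616 and 662 CPM in AA libraries, against 705, 457 and 507 CPM in DMSO libraries. Its groups overlapped, as did those of the tetraspanin Cd63, which averaged 358 ± 51.3 CPM in AA libraries and 360 ± 99.5 CPM in DMSO libraries (SD, n = 3 each). Scarb2, which encodes LIMP-2, the carrier that takes glucocerebrosidase to the lysosome, averaged 73.7 ± 6.21 CPM in AA libraries and 71.8 ± 6.94 CPM in DMSO libraries (SD, n = 3 each).

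Of the 9 proteases, 3 rose (33.3%, beside 22.3% of all tested genes) and none fell. Ctsd encodes cathepsin D, the aspartic protease of the lysosome, and lies on chromosome 7 at 142375911 to 142388038 on the minus strand (mm10). Ctsd had 391, 442 and 477 CPM in AA libraries, against 296, 303 and 211 CPM in DMSO libraries. The groups were apart, with DMSO replicate 3 the lowest. The means were 436 ± 43.3 CPM in AA libraries and 270 ± 51.0 CPM in DMSO libraries (SD, n = 3 each), a fold change of 0.71 ± 0.17 on the log2 scale (SE, limma adjusted p = 0.00925). The change was 1.04 on the log2 scale under the library-set term (adjusted p = 0.00739), and the call was lost with equalised medians (0.45, adjusted p = 0.0812) and with TMM factors (0.50, adjusted p = 0.0501).

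Ctss, a cysteine protease that trims antigen peptides in macrophages and dendritic cells, was low in all libraries. It had 4.51, 3.93 and 3.59 CPM in AA libraries, against 1.84, 1.96 and 0.752 CPM in DMSO libraries. All AA values lay above all DMSO values, from at least 50 reads in each AA library and 12 to 61 reads in the DMSO libraries. The fold change was 1.03 ± 0.28 on the log2 scale (SE, limma adjusted p = 0.0192), the second largest of the members. Ctss was no longer called without AA replicate 1 (adjusted p = 0.0559), AA replicate 2 (0.0588) or DMSO replicate 3 (0.0608). The call was also lost with equalised medians (0.77 on the log2 scale, adjusted p = 0.0656), quantile normalization (0.68, adjusted p = 0.107) and no filter on low values (1.03, adjusted p = 0.0555). TMM factors kept it (0.88, adjusted p = 0.0395), and the library-set term gave 1.51 on the log2 scale. The macrophage marker sum without Csf1r was also higher in AA libraries, while the sum over all 16 markers was not, and the part of these cells in the Ctss change was not tested.

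Ctsl, a cysteine protease that is abundant in kidney tubules, had 336, 360 and 360 CPM in AA libraries, against 274, 277 and 236 CPM in DMSO libraries. The groups did not overlap, and the fold change was 0.43 ± 0.13 on the log2 scale (SE, limma adjusted p = 0.0296). This call was lost in 5 of the 6 fits that left out a library, at adjusted p-values of 0.0501 to 0.0986, and held only without DMSO replicate 2 (adjusted p = 0.0322). The direction was kept in all 6 of these fits. Ctsl was also not called with equalised medians (0.17, adjusted p = 0.403), with TMM factors (0.22, adjusted p = 0.254) or with the library-set term (0.58, adjusted p = 0.071). Ctsb, the related cathepsin B, had 349, 400 and 454 CPM in AA libraries, against 320, 340 and 206 CPM in DMSO libraries. Its groups did not overlap and DMSO replicate 3 was the lowest, but the test was not passed at 0.50 ± 0.19 on the log2 scale (SE, limma adjusted p = 0.0723). Ctsb was called without DMSO replicate 2 (0.63, adjusted p = 0.0435) and under the library-set term (0.95, adjusted p = 0.0141). It was further from a call without DMSO replicate 3 (0.27, adjusted p = 0.241), with equalised medians (0.24, adjusted p = 0.409) and with TMM factors (0.29, adjusted p = 0.302), while quantile normalization called it (0.60, adjusted p = 0.0314).

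The other 5 proteases did not pass the test. Tpp1, a peptidase that removes tripeptides from protein ends, had 272, 262 and 317 CPM in AA libraries, against 251, 254 and 192 CPM in DMSO libraries, without overlap (limma adjusted p = 0.159). Ctsh, an aminopeptidase, averaged 198 ± 22.5 CPM in AA libraries and 172 ± 31.6 CPM in DMSO libraries (SD, n = 3 each, adjusted p = 0.337). Ctsa, a carboxypeptidase that also shields the enzymes encoded by Glb1 and Neu1, averaged 187 ± 25.6 CPM in AA libraries and 188 ± 14.1 CPM in DMSO libraries (SD, n = 3 each). Ctsf and Ctsz, both cysteine proteases, had adjusted p-values of 0.814 and 0.672 and overlapped between groups. Summed over all 9 proteases, levels were 1820, 1941 and 2166 CPM in AA libraries and 1644, 1679 and 1246 CPM in DMSO libraries. Every AA library was again higher. The median fold change of the 9 was 0.29 on the log2 scale, beside 0.21 for all tested genes.

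Of the 6 glycosidases, which trim sugar chains, 1 rose (16.7%, beside 22.3% of all tested genes) and none fell. Gla encodes alpha-galactosidase A, the enzyme missing in Fabry disease, and lies on chromosome X at 134588149 to 134601125 on the minus strand (mm10). Gla had 7.67, 6.62 and 10.7 CPM in AA libraries, against 3.26, 5.24 and 3.45 CPM in DMSO libraries. The groups did not overlap, and the fold change was 0.90 ± 0.26 on the log2 scale (SE, limma adjusted p = 0.024). Gla was no longer called without AA replicate 3 (adjusted p = 0.0952), DMSO replicate 1 (0.0731) or DMSO replicate 3 (0.0561), and under the library-set term (1.05 on the log2 scale, adjusted p = 0.0996). Equalised medians (0.64, adjusted p = 0.0739), TMM factors (0.73, adjusted p = 0.0505), quantile normalization (0.57, adjusted p = 0.11) and no filter on low values (0.90, adjusted p = 0.0744) did not call it either. Hexa, the alpha chain of beta-hexosaminidase that is lost in Tay-Sachs disease, had 8.27, 8.70 and 7.11 CPM in AA libraries, against 5.40, 4.27 and 6.27 CPM in DMSO libraries. Its values did not overlap, and the test was not passed (0.52 ± 0.23 on the log2 scale, SE, limma adjusted p = 0.103).

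The other 4 glycosidases had negative fold changes, and none passed the test. Glb1, the lysosomal beta-galactosidase whose activity is used as a mark of senescent cells, had 193, 168 and 236 CPM in AA libraries, against 292, 293 and 214 CPM in DMSO libraries. AA replicate 3 lay above DMSO replicate 3, so the groups overlapped, and the fold change was -0.42 ± 0.17 on the log2 scale (SE, limma adjusted p = 0.0842). Without DMSO replicate 3 Glb1 was called lower (-0.57, adjusted p = 0.0277), and with equalised medians as well (-0.68, adjusted p = 0.0212). The value was -0.12 with the library-set term (adjusted p = 0.766). Its exons overlap those of Tmppe on the same strand, which averaged 55.5 CPM in AA libraries and 85.1 CPM in DMSO libraries. Neu1, a sialidase, had 383, 277 and 319 CPM in AA libraries, against 393, 467 and 324 CPM in DMSO libraries, with overlap (adjusted p = 0.249). Naglu, which works on heparan sulfate, averaged 46.8 ± 6.25 CPM in AA libraries and 60.0 ± 13.8 CPM in DMSO libraries, and Gusb, the beta-glucuronidase, averaged 39.4 ± 7.25 CPM in AA libraries and 47.1 ± 7.25 CPM in DMSO libraries (SD, n = 3 each). For the 6 enzymes together the median fold change was -0.26 on the log2 scale, beside 0.21 for all tested genes, and against DMSO replicate 3 alone it was -0.0011.

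Of the 4 genes for lipid handling 1 rose (25%, beside 22.3% of all tested genes) and none fell. Npc2 encodes the small soluble protein that hands cholesterol to NPC1 for export from the lysosome, and lies on chromosome 12 at 84754562 to 84773152 on the minus strand (mm10). Npc2 had 66.5, 68.2 and 68.7 CPM in AA libraries, against 50.7, 50.3 and 50.4 CPM in DMSO libraries. Values within each group were close together and the groups were apart, with a fold change of 0.42 ± 0.13 on the log2 scale (SE, limma adjusted p = 0.0282). The call was lost in 5 of the 6 fits that left out a library, at adjusted p-values of 0.0577 to 0.0866, and held only without DMSO replicate 2 (adjusted p = 0.045). Npc2 was also not called with equalised medians (0.16, adjusted p = 0.381), TMM factors (0.21, adjusted p = 0.226), quantile normalization (0.26, adjusted p = 0.144) or the library-set term (0.42, adjusted p = 0.196). Npc1, its partner in the membrane, had 38.4, 39.6 and 48.2 CPM in AA libraries, against 41.4, 42.4 and 37.4 CPM in DMSO libraries, with overlap (adjusted p = 0.823).

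Psap, the precursor of the saposins that present lipids to their hydrolases, was the highest of the 34 members. Psap had 4004, 3409 and 3716 CPM in AA libraries, against 2636, 3115 and 2982 CPM in DMSO libraries. Per kilobase of transcript its mean level was 1396 CPM in AA libraries and 1096 CPM in DMSO libraries, also the highest of the members. The groups did not overlap, and the test was not passed (0.35 ± 0.20 on the log2 scale, SE, limma adjusted p = 0.206), although quantile normalization called it higher at 0.80 on the log2 scale (adjusted p = 0.0154). Equalised medians gave 0.091 for Psap (adjusted p = 0.802), and TMM factors gave 0.14 (adjusted p = 0.675). Asah1, the acid ceramidase, had 75.1, 70.6 and 97.4 CPM in AA libraries, against 116, 83.2 and 106 CPM in DMSO libraries, with overlap (adjusted p = 0.165). Grn encodes progranulin, which is cut into granulins in the lysosome and binds prosaposin. Grn had 169, 126 and 129 CPM in AA libraries, against 127, 131 and 139 CPM in DMSO libraries, with AA replicate 1 alone high (adjusted p = 0.688).

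Members with the E-box in their promoter window did not differ much from the background in their counts. Of the 6 members with TCACGTGA, Ctsd and Gla rose and none fell, and the median fold change of the 6 was 0.27 on the log2 scale. Among all 211 tested genes with that motif 25.1% rose and 5.21% fell, with a median of 0.18. Of the 11 members with CACGTG, 3 rose and none fell, with a median of 0.11, and among all 1176 tested genes with it 24.4% rose and 7.91% fell.

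Of 42 tested acid hydrolases outside the member list, 6 rose (14.3%, beside 22.3% of all tested genes) and 5 fell (11.9%, beside 8.66%). With equalised medians 2 of the 42 were called higher and 11 lower, beside 11.2% and 16.9% of all tested genes. Their median fold change was -0.03 on the log2 scale. Arsg, a sulfatase for heparan sulfate, averaged 23.6 ± 3.06 CPM in AA libraries and 59.3 ± 7.64 CPM in DMSO libraries (-1.29 on the log2 scale, limma adjusted p = 0.000344). Hgsnat, the acetyltransferase of heparan sulfate breakdown, averaged 55.6 ± 3.59 CPM in AA libraries and 33.3 ± 0.894 CPM in DMSO libraries (0.72, adjusted p = 0.00324). Ppt2, a lysosomal thioesterase, averaged 92.3 ± 14.8 CPM in AA libraries and 179 ± 43.0 CPM in DMSO libraries (-0.93, adjusted p = 0.00382). Of 26 other membrane proteins 4 rose (15.4%, beside 22.3% of all tested genes) and 5 fell (19.2%, beside 8.66%). With equalised medians 1 of the 26 was called higher and 8 lower, again beside 11.2% and 16.9%. With the library-set term 1 was called in each direction. The metal transporter Slc11a2 averaged 86.5 ± 8.85 CPM in AA libraries and 159 ± 11.4 CPM in DMSO libraries (-0.87, adjusted p = 0.000999). The amino acid transporter Slc36a1 fell as well (-0.77, adjusted p = 0.00744).

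Of 14 genes that sort enzymes to the lysosome, 2 rose (14.3%, beside 22.3% of all tested genes) and none fell. With equalised medians none of the 14 was called higher and 4 lower, beside 11.2% and 16.9% of all tested genes. With the library-set term none was called. The 2 that rose were Gga2, a coat adaptor at the Golgi, with 117 ± 7.58 CPM in AA libraries and 77.3 ± 4.32 CPM in DMSO libraries (0.60 on the log2 scale, limma adjusted p = 0.00569), and Cln8, which takes enzymes out of the endoplasmic reticulum, with 23.2 ± 0.607 CPM in AA libraries and 16.1 ± 1.80 CPM in DMSO libraries (0.50, adjusted p = 0.0443).

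Among 23 tested genes that regulate TFEB at the lysosomal surface, 6 rose (26.1%, beside 22.3% of all tested genes) and 3 fell (13.0%, beside 8.66%). With equalised medians 2 of the 23 were called higher and 7 lower, beside 11.2% and 16.9% of all tested genes. Rptor, the subunit of mTORC1 that recognises substrates, had 32.7, 32.7 and 31.0 CPM in AA libraries, against 58.6, 83.5 and 61.2 CPM in DMSO libraries (-1.04 on the log2 scale, limma adjusted p = 0.00118). Rragc, a Rag GTPase that docks mTORC1 and TFEB on the lysosome, had 86.1, 92.3 and 89.3 CPM in AA libraries, against 53.6, 30.2 and 50.2 CPM in DMSO libraries (1.02, adjusted p = 0.0035). Fnip2, a partner of folliculin in the control of Rag GTPases, had 240, 160 and 208 CPM in AA libraries, against 322, 334 and 328 CPM in DMSO libraries (-0.71, adjusted p = 0.00684). AA and DMSO values of these genes did not overlap. With the library-set term none of the 23 was called higher and 1 was called lower.

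Genes that respond to damaged lysosomes had 7 of 13 tested members that rose (53.8%, beside 22.3% of all tested genes) and none that fell. Their median was 0.45 on the log2 scale. The list was chosen with earlier results of these data known, so its share is a description and not a test. Lgals9, a galectin that binds sugars exposed inside broken lysosomes, averaged 6.96 ± 0.548 CPM in AA libraries and 1.94 ± 0.0652 CPM in DMSO libraries (1.44 on the log2 scale, limma adjusted p = 0.00128). Trim16, a ubiquitin ligase that works with a galectin at damaged lysosomes, averaged 19.4 ± 2.59 CPM in AA libraries and 7.64 ± 1.92 CPM in DMSO libraries (1.26, adjusted p = 0.00245). Lgals3, a galectin used as a marker of lysosome rupture and itself abundant in macrophages, had 9.32, 29.1 and 21.5 CPM in AA libraries, against 3.81, 5.30 and 3.20 CPM in DMSO libraries (1.93, adjusted p = 0.0027). With equalised medians 3 of the 13 were called higher, beside 11.2% of all tested genes, and with the library-set term 2 were, beside 7.39%.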

How the data were processed

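Polyadenylated RNA of dissected tubules was sequenced from stranded libraries, per the labels' protocols, and per the submitters' processing notes with bcl2fastq 2.19, kallisto and build mm10; neither the annotation nor the strand setting is given there. The authors deposited log10 values, which the values themselves show to be log10(CPM + 1): undone, each column has the sum that defines CPM and 100% of values are whole reads within 0.1 read. They were logged again as log2(CPM + 1). A gene was tested (14311 were) if 3 or more libraries reached 1 CPM, with limma 3.58.1 with a variance trend (R 4.3.3), two-sided, Benjamini-Hochberg adjusted over all tested genes and called under 0.05. The test was tried on simulated data. All 34 members are named. From each pathway list the 3 called genes with the smallest adjusted p are named, except 1 that is not reported here, and from marker lists the sum and highest gene; further markers, Atp6v1b1 and the overlapping genes were named after their values were seen. Members and lists were chosen with earlier results of these data known. Coordinates and transcript lengths came from GENCODE M21. Of the members, 10 share exon sequence with another gene, 4 on the same strand (Atp6v0a4, Glb1, Ctsd and Ctsl). The same-strand partners of Ctsd (Gm49369) and Ctsl (Gm49230) have no values, so their part in the reads cannot be judged. Among the symbols, 27 were dates and 2 occurred more than once.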

Additional observations from a re-analysis of the deposited data

How the results depend on the processing

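The members' calls depended on scaling, which gave an all-gene median of -0.05 on the log2 scale with equalised medians, 0.018 with TMM factors and -0.0058 with quantile normalization, beside 0.21 as reported. Members called higher, 8 as reported, numbered 3 with equalised medians, 4 with TMM factors, 5 with the library-set term and 4 to 9 leaving out single libraries. Members called lower, 1 as reported, numbered 6 with equalised medians (Atp6v0a4, Glb1, Naglu, Asah1, Tfeb and Atp6v1h), 3 with TMM factors, 2 with quantile normalization, 0 without a variance trend, 0 with the library-set term and 0 to 2 leaving out single libraries. All tested genes were called higher in 11.2% and lower in 16.9% with equalised medians, and in 7.39% and 2.96% with the library-set term. Those shares were 13.5% and 14.4% with TMM factors, and 20.4% and 7.22% without a variance trend. They were 12.7% and 14.5% with quantile normalization, which called 7 members higher. Leaving out single libraries gave 12.9% to 19.8% higher and 5.61% to 7.97% lower among all tested genes. A replicate block gave 6 members higher and 1 lower, beside 19.3% and 7.30% of all tested genes. Same-numbered libraries did not deviate together (correlations -0.11, -0.16 and -0.015), so the numbers do not pair them. None of the 9 called members reversed. Uncalled members reversed as follows, on the log2 scale. With equalised medians these were Lamp2 -0.19, Cd63 -0.24, Ctsf -0.20, Ctsh -0.047, Ctsz -0.18, Npc1 -0.21, Scarb2 -0.22, Mitf -0.052, Atp6v0d1 -0.15, Atp6v1a -0.15 and Grn -0.18. With TMM factors they were Lamp2 -0.14, Cd63 -0.19, Ctsf -0.14, Ctsz -0.12, Npc1 -0.15, Scarb2 -0.17, Atp6v0d1 -0.093, Atp6v1a -0.10 and Grn -0.12. With quantile normalization they were Ctsf -0.13, Ctsz -0.071, Npc1 -0.14, Scarb2 -0.11, Mitf -0.12 and Atp6v0d1 -0.042. Ctsa turned to 0.0047 with array weights and 0.11 with the library-set term, and Gusb to 0.0030 with that term. Leaving out single libraries gave -0.062 to 0.25 for Lamp2, -0.21 to 0.20 for Cd63, -0.12 to 0.065 for Ctsa, -0.076 to 0.22 for Ctsf, -0.0042 to 0.14 for Ctsz, -0.048 to 0.11 for Npc1, -0.026 to 0.11 for Scarb2, -0.079 to 0.39 for Mitf, -0.058 to 0.23 for Atp6v0d1 and -0.049 to 0.16 for Grn. The cause was not tested. The promoter share was 30.6% for CACGTG and 16.7% for TCACGTGA. A filter of 4 CPM leaves Ctss out. Depth limits Cd68 in DMSO libraries, which rests on 6 to 39 reads.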
